A study of Rattus norvegicus with 192 samples.

Results

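Collagens are the triple-helical proteins of the extracellular matrix, and their genes were described here across bulk RNA-seq libraries of the rat nucleus accumbens core, the inner part of the ventral striatum. Members were all genes whose symbol has the form of Col, a number, the letter a and a second number, which gave 44 of the 38354 genes in the deposited table. They comprised 11 fibrillar collagens, 6 basement membrane collagens of type IV, 6 collagen VI genes, 9 fibril-associated collagens (FACIT), 2 multiplexins, 4 short-chain or anchoring collagens, 4 transmembrane collagens and 2 others. Col19a1, Col23a1, Col24a1 and Col25a1 were also grouped as neuron-associated. Levels are given in CPM, an expected read count scaled to a library total of 1000000, and are not scaled for transcript length. They are therefore compared between libraries and not between genes.

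PolyA RNA of outbred heterogeneous stock rats was sequenced, 1 library for each rat identifier. Of 192 labelled libraries, 33 carried a note of removal and were not analysed here, and the others had total counts between 14.6 and 61.2 M (M, 1000000 counts). By the format of the identifier, 67 libraries had an all-digit (numeric) label, 77 an E21 label, 12 a label corrected to the E21 format after a genotype mismatch, 2 an AA1 label and 1 a label corrected to another format. No treatment, sex, age, dissection date or batch is given in the labels. Nothing beyond the separate identifiers says how the samples were taken, so p-values measure the spread between these libraries. The tissue label was checked against neuronal genes. In 147 libraries the D1 dopamine receptor gene Drd1 lay at 154 CPM or above, which is called the accumbens profile here. In 11 others Drd1 lay at 7.77 or below and Th, the enzyme that starts dopamine synthesis, at 630 or above, against 10.7 or less elsewhere (midbrain profile). Of these 11, 10 had a numeric and 1 an E21 label. The remaining numeric library, number 3, reached 100 CPM of neither gene and had 2737 CPM over 8 cortical glutamatergic markers (highest accumbens-profile library 1486).

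Fibrillar collagens such as types I and III are made in the brain mainly by fibroblasts of the meninges and around larger vessels. Type IV collagens form the network of the vascular and pial basement membrane together with laminins, nidogens and perlecan, and are made by endothelial and mural cells. A few collagens are known from neurons. Col25a1 encodes a transmembrane collagen whose shed part accumulates in amyloid plaques, and Col19a1 encodes a FACIT collagen of neuron subsets. In bulk tissue, fewer cells of a type and less RNA per cell cannot be told apart.

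Of the 44 members, 33 had a mean of 1 CPM or more over all libraries. The 11 below it were Col4a4, Col6a4, Col6a5, Col6a6, Col9a1, Col10a1, Col13a1, Col22a1, Col24a1, Col26a1 and Col28a1. The members nearest the limit were Col13a1 at 0.996 CPM just outside and Col17a1 at 1.06 and Col2a1 at 1.19 just inside. Over the accumbens-profile libraries alone the mean of Col2a1 was 0.987 CPM, so it passed only through the midbrain-profile libraries. A level of 1 CPM stands for 14.6 expected counts in the shallowest library.

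Many collagen genes had a higher median in the libraries of midbrain profile, among them collagens I, III and VI, while other fibrillar members such as Col11a1 and Col27a1 had a lower one. The median of the 11 midbrain-profile libraries was at least 2 times that of the 147 for 14 of 33 members, against 8.87% of all 15427 genes that passed the same filter. It was at most 0.5 times for 3 members (9.20% of genes). It lay above the accumbens median for 27 of 33 members (51.6% of genes), and the median ratio over the 33 was 1.70, against 1.02 over all genes. Col2a1 is among the 14 and the 27, though it passed the filter only through the midbrain-profile libraries. The profiles were read from the same libraries, so no test was made between them.

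**Figure D1:**
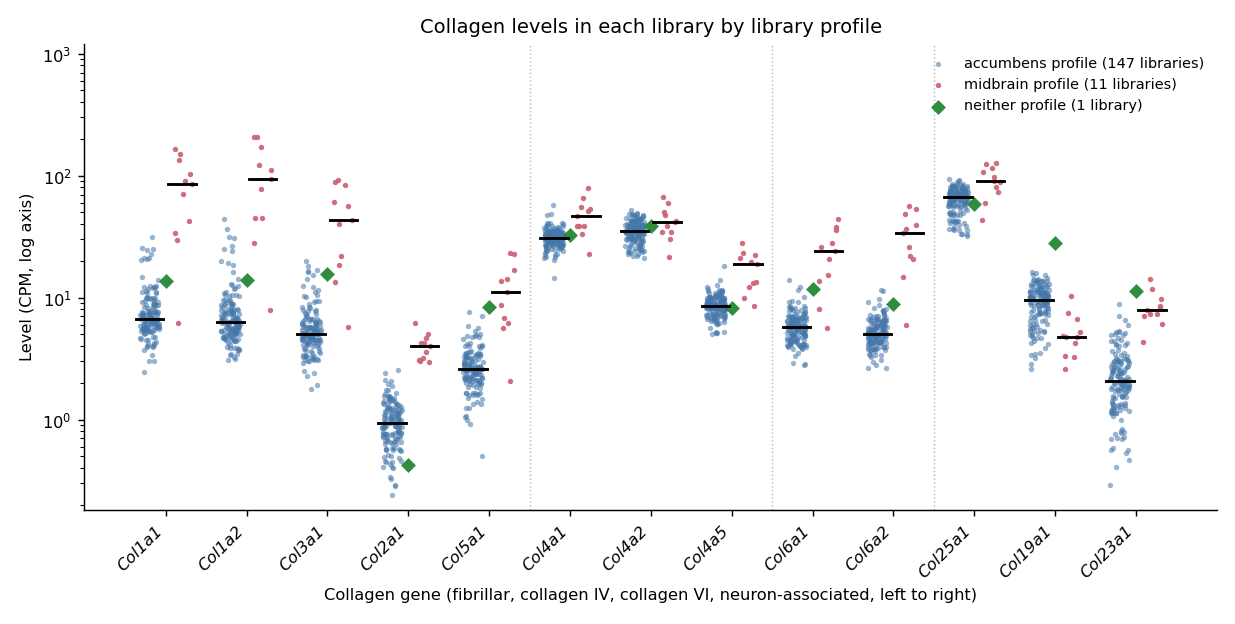
Level of 13 collagens in each library (points, CPM on a log axis) by library profile, with black lines at the medians. The midbrain-profile libraries lie mostly above the others for collagens I, III and VI, with 1 library low in all of these. They mostly overlap the accumbens range for Col4a2 and lie mostly in its lower part for Col19a1.

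Collagen I is the main fibril of fibrous tissue, a heterotrimer of chains from Col1a1 (chromosome 10, 80380458 to 80397461 in GRCr8) and Col1a2 (chromosome 4, 33518557 to 33553484). Col1a1 lay between 2.45 and 31.3 CPM (median 6.74) in the accumbens-profile libraries and between 6.18 and 164 (median 85.8) in the midbrain-profile ones. Col1a2 lay between 3.06 and 44.0 CPM (median 6.32) and between 7.97 and 209 (median 93.1). For both genes, 9 of the 11 midbrain-profile libraries were above every accumbens-profile library. Col3a1 (chromosome 9, 54866646 to 54902578), whose fibrils mix with collagen I, ran from 1.77 to 20.1 CPM (median 5.03) against 5.77 to 92.2 (median 43.1), with 8 of 11 above.

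The minor fibrillar chains of type V, which set fibril diameter, did not move as one. Col5a1 lay between 0.505 and 7.56 CPM (median 2.59) in the accumbens profile and between 2.09 and 23.4 (median 11.2) in the midbrain profile. Col5a2 lay between 6.31 and 26.1 CPM (median 13.4) and between 13.5 and 32.0 (median 22.7). Col5a3 lay between 11.4 and 63.1 CPM (median 30.8) and between 26.7 and 43.1 (median 35.0). The ratios of medians were 4.31, 1.70 and 1.13, and the ranges of each gene overlapped. Col2a1 (chromosome 7, 130977561 to 131006627), the cartilage collagen, was the 1 member of the 33 whose ranges were apart, at 0.239 to 2.55 CPM (median 0.936) against 2.96 to 6.25 (median 4.04), where 6.00% of all genes were higher in this sense. Col2a1 passed the filter only through the midbrain-profile libraries, where it was high. Its place among the 33 and its separated ranges are therefore not independent. None of the 33 was lower in every midbrain-profile library (6.57% of genes).

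Other cartilage-type fibrillar collagens showed smaller or opposite differences. Col11a1 lay between 1.12 and 15.4 CPM (median 7.85) and between 1.32 and 5.10 (median 4.12), the lower in the midbrain profile. Col11a2 lay between 36.4 and 138 CPM (median 81.9) and between 55.1 and 134 (median 93.8). Col27a1, with a gene product of cartilage and other tissues, lay between 5.74 and 27.1 CPM (median 15.8) and between 5.78 and 19.7 (median 11.1). In all 3 the midbrain-profile values stayed within the accumbens range. Col24a1, below the filter, had medians of 0.622 and 3.06 CPM.

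Collagen VI forms beaded microfilaments around cells from chains of Col6a1, Col6a2 and Col6a3. Col6a1 (chromosome 20, 11905690 to 11924111) lay between 2.81 and 13.9 CPM (median 5.70) against 5.66 to 44.3 (median 24.2). Col6a2 (chromosome 20, 12021182 to 12048932) lay between 2.63 and 11.5 CPM (median 5.08) against 5.99 to 55.9 (median 33.7), with 10 of 11 midbrain-profile libraries above the accumbens range. Col6a3 had medians of 1.06 and 6.55 CPM. These 3 chains were thus at least 4.25 times higher by median. Of the chains below the filter, Col6a4 had medians of 0.0931 and 0.788 CPM, Col6a5 of 0.0532 and 0.0830 and Col6a6 of 0.477 and 0.908.

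The basement membrane chains of Col4a1 and Col4a2 differed less between the profiles. Col4a1 and Col4a2 encode the chains of the common type IV network and lie head to head on chromosome 16 (84885597 to 84996482 and 84749672 to 84885520). Their promoter windows are shown because both genes read out of the same stretch, with transcript starts 77 bases apart on opposite strands. Windows of 300 bases, 250 before the start and 50 after, were taken from RefSeq for GRCr8, and capitals mark the motifs CCAAT and GGGCGG and, in Col1a2, TATAAA, on either strand.
Col4a1, chr16:84885347-84885646, plus strand: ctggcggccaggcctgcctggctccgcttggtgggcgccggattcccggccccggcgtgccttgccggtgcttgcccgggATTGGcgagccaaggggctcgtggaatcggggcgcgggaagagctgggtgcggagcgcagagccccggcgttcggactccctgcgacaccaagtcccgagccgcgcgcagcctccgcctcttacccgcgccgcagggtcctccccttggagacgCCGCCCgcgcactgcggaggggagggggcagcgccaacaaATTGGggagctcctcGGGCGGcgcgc
Col4a2, chr16:84885471-84885770, minus strand: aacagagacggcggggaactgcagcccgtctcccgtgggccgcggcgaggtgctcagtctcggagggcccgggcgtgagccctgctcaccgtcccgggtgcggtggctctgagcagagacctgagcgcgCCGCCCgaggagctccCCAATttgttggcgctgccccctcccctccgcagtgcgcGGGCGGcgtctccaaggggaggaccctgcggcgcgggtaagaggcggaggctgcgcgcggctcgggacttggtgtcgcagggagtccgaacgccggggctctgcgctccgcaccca
Col1a2, chr4:33518307-33518606, plus strand: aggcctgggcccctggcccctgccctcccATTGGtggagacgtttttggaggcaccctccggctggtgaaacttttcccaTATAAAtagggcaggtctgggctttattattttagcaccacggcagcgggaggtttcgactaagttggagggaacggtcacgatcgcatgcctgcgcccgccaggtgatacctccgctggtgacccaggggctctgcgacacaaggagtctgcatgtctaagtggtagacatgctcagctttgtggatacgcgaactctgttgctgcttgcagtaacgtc
The first pair of windows share 176 bases, hold 75% and 73.7% G and C, and have no TATAAA. The Col1a2 window, shown for comparison as a fibrillar member, holds 57% G and C, 1 TATAAA and 1 CCAAT and no GGGCGG. Over 33469 RefSeq windows of this length, TATAAA occurred in 14.2%, CCAAT in 37.5% and GGGCGG in 33.1%. Of 35 members with a window, 4 held TATAAA, 11 CCAAT and 19 GGGCGG. A match describes letters and is not a bound site.

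Col4a1 lay between 14.4 and 57.4 CPM (median 30.8) in the accumbens profile and between 23.0 and 78.5 (median 46.5) in the midbrain profile. Col4a2 lay between 21.2 and 52.3 CPM (median 34.9) and between 21.6 and 66.4 (median 41.3). For each of these genes, 2 of 11 midbrain-profile libraries were above the accumbens range, so most values overlapped. The X-linked pair Col4a5 and Col4a6, head to head with starts 1264 bases apart, differed more. Col4a5 lay between 5.01 and 18.2 CPM (median 8.51) and between 8.58 and 28.2 (median 18.9). Col4a6 lay between 0.464 and 3.69 CPM (median 1.3) and between 0.990 and 8.47 (median 3.98). Each had 6 of 11 midbrain-profile libraries above. Col4a3 and Col4a4 on chromosome 9, starts 413 bases apart, encode chains of glomerular and other specialised basement membranes. Col4a3 lay between 3.30 and 11.9 CPM (median 6.23) and between 4.18 and 9.89 (median 6.85), inside the accumbens range, and Col4a4, below the filter, of 0.362 and 0.432.

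**Figure D2:**
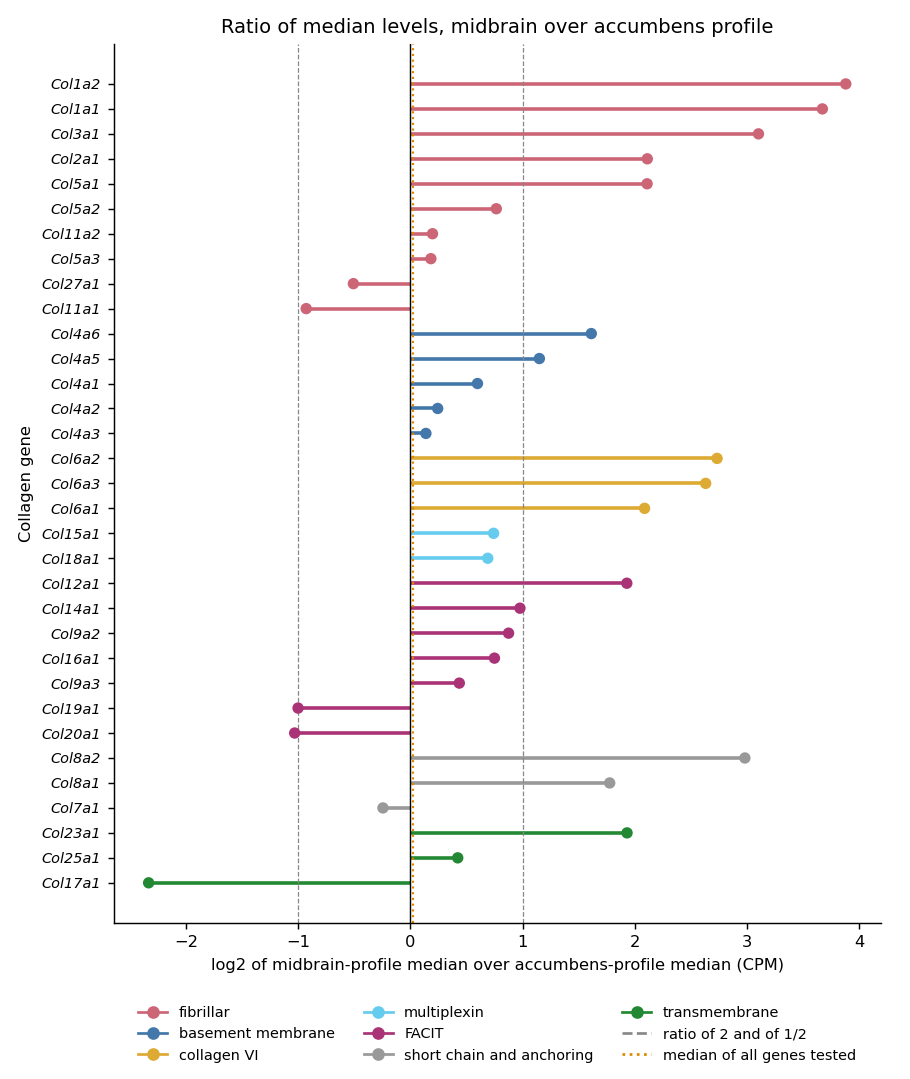
Ratio of the median level in 11 midbrain-profile libraries to that in 147 accumbens-profile libraries for 33 collagens, as log2, coloured by class. Col1a2, Col1a1, Col3a1 and Col8a2 have the 4 highest ratios and Col17a1 the lowest, and the median of all genes (dotted) lies near 0.

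The neuron-associated members differed in direction. Col25a1 (chromosome 2, 221429378 to 221828536) lay between 32.2 and 93.4 CPM (median 66.9) in the accumbens profile and between 43.6 and 128 (median 89.5) in the midbrain profile. Col19a1 (chromosome 9, 34170248 to 34518478) lay between 2.58 and 16.1 CPM (median 9.48) and between 2.59 and 10.3 (median 4.73), the lower in the midbrain profile, and reached 28.3 in the library of neither profile. Col23a1 (chromosome 10, 36050327 to 36337279), a transmembrane collagen, lay between 0.293 and 8.85 CPM (median 2.08) and between 4.32 and 14.3 (median 7.92), with 11.2 in that library. Col19a1, Col23a1, Col5a1 (8.33 CPM) and Col8a1 (6.50 CPM) were the 4 members of 33 above the whole accumbens range there, where 9.89% of all genes were, and Col9a3 (5.60 CPM) and Col11a1 (0.842 CPM) the 2 below it (10.1% of genes).

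Among the remaining members, the transmembrane Col13a1, which lies at neuromuscular junctions and was just under the filter, was apart in range, at 0 to 1.80 CPM (median 0.673) against 2.46 to 8.29 (median 5.63). Col17a1, a hemidesmosome collagen, had medians of 1.10 and 0.218 CPM, with 4 of 11 midbrain-profile libraries below the accumbens range. Col12a1, a FACIT collagen of dense connective tissue, had medians of 4.34 and 16.5 CPM. The short-chain collagens Col8a1 and Col8a2, known from vessel walls and the cornea, had medians of 1.91 and 6.55 CPM and of 0.673 and 5.31. Col20a1 had medians of 6.64 and 3.24 CPM. Of the members not named above, Col9a2, Col9a3, Col14a1, Col15a1, Col16a1 and Col18a1 were higher by median with ratios between 1.35 and 1.97, and Col7a1 had a ratio of 0.844. Of those below the filter, Col22a1 had medians of 0.189 and 0.425 CPM, Col26a1 of 0.141 and 0.807, Col28a1 of 0.137 and 0.195, Col9a1 of 0.956 and 0.460 and Col10a1 of 0.103 and 0.0830.

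The midbrain-profile libraries also differed in markers of meningeal fibroblasts. All 10 markers (Lum, Dcn, Igf2, Slc6a13, Aldh1a2, Fmod, Ogn, Islr, Aebp1 and Foxc1) had a median at least 2 times higher there (8.87% of all genes), and none was at 0 by median in either profile. Their summed level was between 25.3 and 204 CPM (median 43.4) in the accumbens profile and between 76.2 and 1683 (median 684) in the midbrain profile, with 10 of 11 above. Igf2 had the highest medians of the 10, at 16.2 and 444 CPM, and Aebp1 the next, at 6.16 and 72.7. The sum therefore leans on Igf2, also where collagens are set against it below. Of 8 mural markers, 3 were at least 2 times higher, the smooth muscle genes Myh11, Acta2 and Tagln. Rgs5, Pdgfrb and Higd1b were lower by median (ratios 0.90, 0.98 and 0.94), and Kcnj8 and Abcc9 had ratios of 1.16. The sum of the 8 had medians of 94.8 and 307 CPM. None of 8 endothelial markers was at least 2 times higher (summed medians 284 and 374 CPM). Of 6 astrocyte markers 3 were, Gfap, Aldh1l1 and Aqp4, each with ranges apart. Slc1a3 was lower by median (605 and 342 CPM), Gja1 had a ratio of 0.99 and Fgfr3 of 1.40. The sum of the 6 had medians of 1710 and 4240 CPM with 9 of 11 above. Of 3 ependymal markers that passed the filter 2 were at least 2 times higher. The part of these cells in the collagen levels was not tested.

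E21 library 70 was the low end of the 11. It had 76.2 CPM of meningeal markers, 6.18 of Col1a1, 7.97 of Col1a2 and 23.0 of Col4a1, and 2 members above the accumbens range. Numeric library 63 was at the other end for Col1a1, with 164 CPM and 21 members above that range. It had 1253 CPM of meningeal markers. Without library 70, Col2a1 and Col6a2 were apart in range (6.44% of genes), and the count of members at least 2 times higher was 14.

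Across the 11 libraries, 6 members were compared with the summed meningeal markers on the log2 scale, a choice made after their values were seen. The p-values were adjusted over these 6 alone and not over the 33, so they are descriptions. Col1a1 had a Pearson r of 0.99 and a Spearman rho of 0.99 (2-sided permutation test, adjusted p = 2e-05 for r and 4e-05 for rho), with r at 0.97 without the 2 libraries farthest from the median. Col3a1 had r = 0.98 and rho = 0.98 with the same adjusted p-values, Col6a1 r = 0.97 and rho = 0.98, again with those p-values, and Col4a1 r = 0.93 and rho = 0.90 (adjusted permutation p = 0.000135 and 0.00063). Without the 2 farthest libraries r was 0.95 for Col3a1, 0.96 for Col6a1 and 0.89 for Col4a1. Col2a1, the member whose ranges were apart, had r = -0.09 and rho = -0.19 (adjusted permutation p = 0.792 and 0.575), and r = -0.51 without the 2 farthest. Col25a1 had r = -0.60 and rho = -0.69 (adjusted permutation p = 0.062 and 0.0261), and r = -0.72 without the 2 farthest. Of the 11 libraries, 10 had the numeric label. Within these 10, r was 0.98 for Col1a1, 0.97 for Col3a1, 0.97 for Col6a1 and 0.87 for Col4a1, with rho at 0.99, 0.98, 0.98 and 0.87 (adjusted permutation p of 0.00297 or less for each). There Col2a1 had r = -0.45 and rho = -0.35 (adjusted permutation p = 0.188 and 0.331), and Col25a1 had r = -0.77 and rho = -0.75 (adjusted permutation p = 0.0112 and 0.0208). Over all 33 members rather than these 6, 13 had r of at least 0.9 with the marker sum across the 11 libraries, against 1.63% of 15426 genes, and 11 did within the numeric label (193 of those genes).

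**Figure D3:**
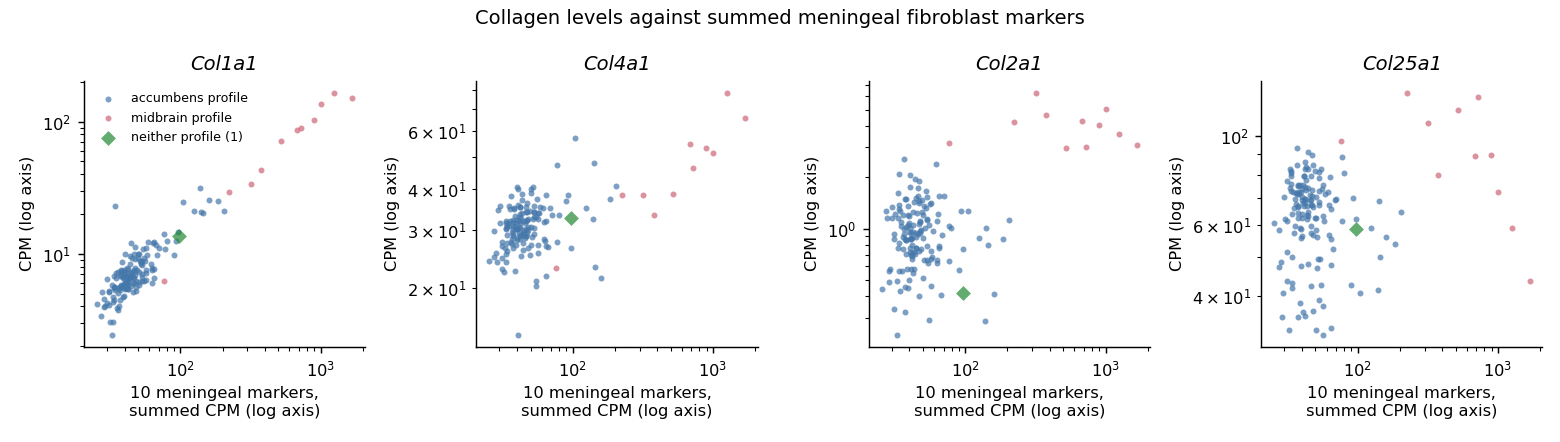
Levels of Col1a1, Col4a1, Col2a1 and Col25a1 against the summed level of 10 meningeal fibroblast markers in all libraries, both in CPM on log axes and coloured by profile. Col1a1 is higher where the markers are higher within both profiles, Col2a1 is high in the midbrain profile at any marker level, and among the midbrain-profile libraries Col25a1 is lowest in the one with the highest marker sum.

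Other genes of the collagen pathway were read in the same way from lists of collagen-making, collagen-cutting and collagen-binding proteins. Over all genes 8.87% were at least 2 times higher in the midbrain profile and 9.20% at most 0.5 times. Of 17 folding and modification genes, 2 were at least 2 times higher, near the share of all genes. The 2 were Plod2, a lysyl hydroxylase (medians 4.16 and 21.2 CPM), and Colgalt2, a collagen galactosyltransferase (7.41 and 22.3 CPM). The chaperone Serpinh1 had medians of 33.8 and 64.7 CPM. Of 10 processing and crosslinking genes 3 were at least 2 times higher and 1 at most 0.5 times. The procollagen peptidase gene Adamts2 had medians of 1.18 and 10.6 CPM, and its relative Adamts3 of 58.9 and 3.95, with ranges apart in opposite directions. Of 7 turnover genes 4 were higher by this measure, among them the collagenase Mmp14 (7.80 and 25.3 CPM). Of 13 basement membrane partners 9 were, among them the nidogen Nid1 (14.9 and 48.5 CPM) and perlecan, Hspg2 (11.4 and 26.9 CPM). Of 7 receptors 1 was, again near the share of all genes. It was the discoidin receptor Ddr2 (3.83 and 15.9 CPM), while Ddr1 had medians of 176 and 232.

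Within the 147 accumbens-profile libraries the collagens differed in how far they spread. The ratio of the 95th to the 5th percentile was 5.10 for Col1a1, 5.36 for Col1a2 and 4.09 for Col3a1, against 1.73 for Col4a1, 1.98 for Col4a2 and 2.28 for Col25a1. It was highest among the 33 for the short-chain Col8a2, at 14.7. The median SD of log2 values was 0.34 over the 33 members and 0.24 over all genes. Col1a1 had a gap between 14.7 and 20.3 CPM, with 138 libraries below and 9 above it, 5 of the E21 and 4 of the numeric label. Of these 9, 8 had between 104 and 204 CPM of meningeal markers, where the highest of the 138 had 96.5. The other one, E21 library 24, had 22.8 CPM of Col1a1 with 7.98 of Col1a2, 4.07 of Col3a1 and 34.2 of meningeal markers.

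Most pairs of chains that build 1 molecule varied together among the accumbens-profile libraries, and so did some chains of different molecules. The share of all gene pairs that vary together was not counted. Of 32 pairs listed, 30 were computed on log2(CPM + 1), with 2-sided permutation p-values from 100000 resamples adjusted over the 30. The smallest raw p that these can give is 1e-05, and it adjusts to 1.875e-05 for r. Col1a1 and Col1a2 had r = 0.88 and rho = 0.84 (adjusted permutation p = 1.875e-05), with r at 0.86 without the 2 farthest libraries, 0.93 within the 56 numeric libraries and 0.87 within the 76 E21 libraries. Col1a1 and Col3a1 had r = 0.82 and rho = 0.71 at the same p, and 0.79, 0.92 and 0.77 in those subsets. The collagen I and III genes therefore moved together within either label.

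The type IV pair was less tight. Col4a1 and Col4a2 had r = 0.66 and rho = 0.64 (adjusted permutation p = 1.875e-05), 0.65 without the 2 farthest, 0.57 in numeric and 0.66 in E21 libraries. Col4a5 and Col4a6 had r = 0.42 and rho = 0.38 at the same p, and 0.32, 0.56 and 0.32 in those subsets. Col4a3 and Col4a4 were not computed, since Col4a4 was below the filter, and neither was the pair of Col9a1 with precursor cell markers. Among other chains of shared trimers, r was 0.70 for Col6a1 and Col6a2, 0.65 for Col11a1 and Col11a2, 0.63 for Col9a2 and Col9a3, 0.53 for Col6a1 and Col6a3 and 0.51 for Col5a1 and Col5a2, each at the same adjusted p for r and at 0.43 or above within both labels. Spearman rho for these 5 pairs lay between 0.38 and 0.65. Col8a1 and Col8a2 had r = 0.02 and rho = -0.04 (adjusted permutation p = 0.816 and 0.632). Of chains of different trimers, Col4a1 and Col4a5 had r = 0.48 and rho = 0.33, with r at 0.36 in numeric and 0.53 in E21 libraries. For Col3a1 and Col5a2 r was 0.28 and rho 0.30, with r at 0.39 and 0.07 within labels. The multiplexins Col15a1 and Col18a1 had r = 0.21 and rho = 0.27, with r at 0.01 and 0.32 within labels.

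**Figure D4:**
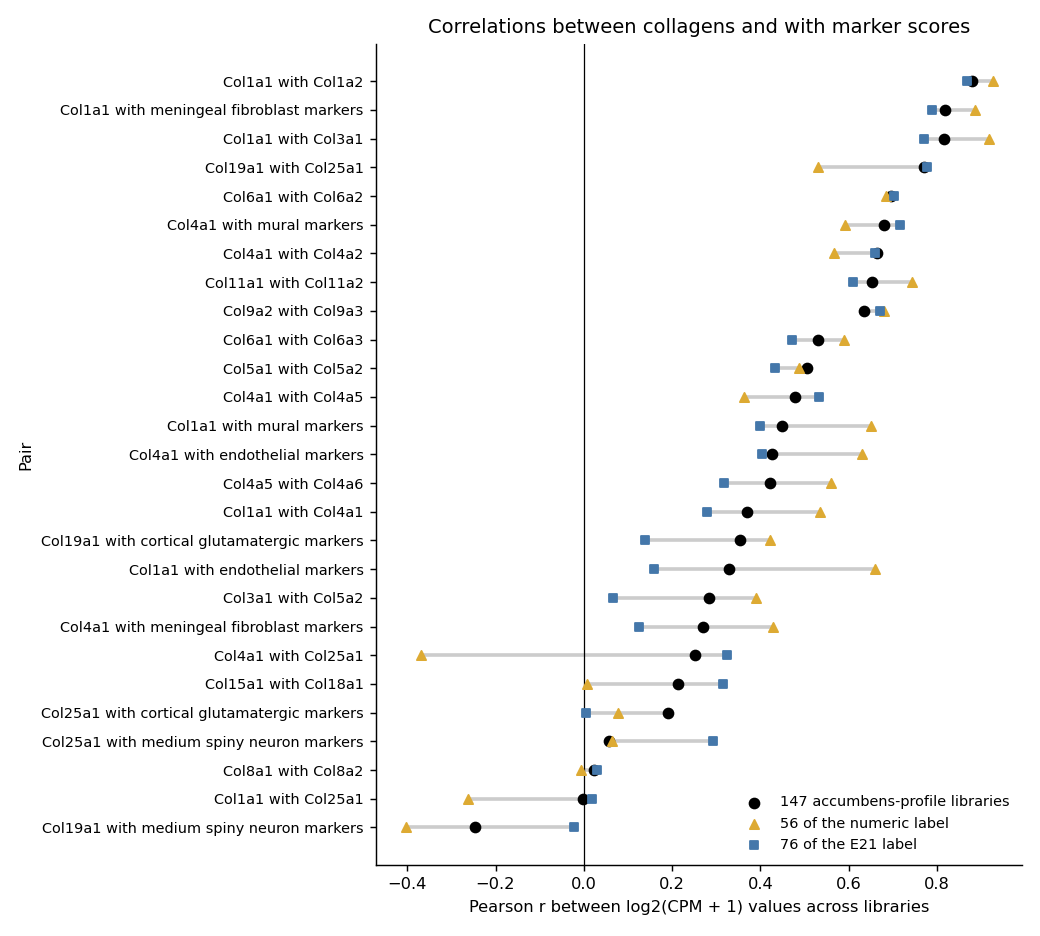
Pearson r for 27 pairs of collagens, or of a collagen and a marker score, over 147 accumbens-profile libraries (circles), 56 of the numeric label (triangles) and 76 of the E21 label (squares). Collagen I and III pairs are high in all subsets, and Col4a1 with Col25a1 differs in sign between labels.

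Ties between classes were computed for Col1a1, Col4a1 and Col25a1, one gene of each. Col1a1 and Col4a1 had r = 0.37 and rho = 0.40 (adjusted permutation p = 1.875e-05), 0.44 without the 2 farthest, 0.54 in numeric and 0.28 in E21 libraries. Col1a1 and Col25a1 had r = -0.00 and rho = 0.04 (adjusted permutation p = 0.981 and 0.634). Col4a1 and Col25a1 had r = 0.25 and rho = 0.17 (adjusted permutation p = 0.00256 and 0.0433), but r was -0.37 in numeric and 0.33 in E21 libraries, so the pooled direction held in the E21 and turned in the numeric libraries. The neuron-associated Col19a1 and Col25a1 had r = 0.77 and rho = 0.68 (adjusted permutation p = 1.875e-05), 0.75 without the 2 farthest, 0.53 in numeric and 0.78 in E21 libraries.

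Scores of marker genes, the mean of their standardised log2 values, were compared with Col1a1 and Col4a1. The lists behind the scores were chosen with earlier results of these data known, so the p-values are not independent of those results. The share of all genes that reach a given r with a score was not counted. Col1a1 had r = 0.82 and rho = 0.75 with the meningeal score (adjusted permutation p = 1.875e-05), 0.79 without the 2 farthest, 0.89 in numeric and 0.79 in E21 libraries. Col4a1 had r = 0.68 and rho = 0.58 with the mural score at the same p for r, 0.61 without the 2 farthest, and 0.59 and 0.72 within labels. With the endothelial score it had r = 0.43 and rho = 0.28 (adjusted permutation p = 1.875e-05 and 0.00137), 0.29 without the 2 farthest, and 0.63 and 0.40 within labels. The cross pairs passed as well over the 147 libraries, though not all of them within the E21 label. Col1a1 had r = 0.45 with the mural score (adjusted permutation p = 1.875e-05), and 0.65 and 0.40 within labels. With the endothelial score Col1a1 had r = 0.33 (adjusted permutation p = 0.000133), and 0.66 and 0.16 within labels. It did not hold in the E21 libraries (adjusted permutation p = 0.23). Col4a1 had r = 0.27 with the meningeal score (adjusted permutation p = 0.00181), and 0.43 and 0.12 within labels. This relation did not hold in the E21 libraries either (adjusted permutation p = 0.348). In numeric libraries the mural and endothelial scores were thus no closer to Col4a1 than to Col1a1.

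Col19a1 and Col25a1 were compared with neuronal scores. Col19a1 had r = 0.35 and rho = 0.40 with the cortical score (adjusted permutation p = 3.53e-05 for r), 0.35 without the 2 farthest, 0.42 in numeric and 0.14 in E21 libraries. With the medium spiny neuron score it had r = -0.25 and rho = -0.21 (adjusted permutation p = 0.00301 and 0.0104), -0.27 without the 2 farthest, and -0.40 and -0.02 within labels, so neither relation held in the E21 libraries (adjusted permutation p = 0.3 and 0.93). Col25a1 had r = 0.19 and rho = 0.22 with the cortical score (adjusted permutation p = 0.0247 and 0.00877), 0.18 without the 2 farthest, and 0.08 and 0.00 within labels, where it did not hold. With the medium spiny neuron score Col25a1 had r = 0.06 and rho = 0.04 (adjusted permutation p = 0.531 and 0.632). Within labels r was 0.06 in numeric and 0.29 in E21 libraries (adjusted permutation p = 0.681 and 0.0153), so it passed in the E21 libraries alone. Depth, as log2 total count, had r = 0.27 and rho = 0.22 with Col25a1 (adjusted permutation p = 0.00141 and 0.00986), -0.17 in numeric and 0.28 in E21 libraries, and r = 0.25 and rho = 0.26 with Col4a1 (adjusted permutation p = 0.00381 and 0.00224), 0.07 and 0.22 within labels. For Col1a1 it had r = 0.13 and rho = 0.05 (adjusted permutation p = 0.119 and 0.632).

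The genes nearest to 3 members by Pearson r over the 147 libraries were named by a fixed rank of 5. Those of Col1a1 were Igf2 (r = 0.82), Ogn (0.76), Aldh1a2 (0.74), Serpinf1 (0.70) and Cpxm2 (0.68), of which the first 3 were on the meningeal list. Those of Col4a1 were Hspg2 (0.76), Adgra2 (0.75), Lama4 (0.74), Olfml2a (0.73) and Myh14 (0.73). Those of Col25a1 were Stxbp5l (0.92), Peg3 (0.91), Kif21a (0.91), Ncoa7 (0.91) and Tenm1 (0.89). These are descriptions of likeness and carry no test.

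The identifier format is the one label that divides the libraries, and the comparison asks whether collagen levels differed along it. Collagen genes were lower in the 76 E21 than in the 56 numeric libraries of accumbens profile. Of 32 members tested, 24 were lower and 0 higher by limma at an adjusted p of 0.05 over 15325 genes, of which 25.8% were lower and 11.8% higher. All 32 changes were negative, with a median of -0.18 on the log2(CPM + 1) scale against -0.03 over all genes. That scale understates changes of low genes. Scaling by median of ratios gave 18 lower and quantile normalization 16, and under each 29 of the 32 were negative. All genes then split into 2850 higher and 2746 lower, and 3090 and 2699, against 1809 and 3949.

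The 3 neuron-associated members tested were all lower. Col25a1 ran from 42.7 to 93.4 CPM (median 69.8) in numeric and from 32.2 to 91.5 (median 61.4) in E21 libraries, a log2 change of -0.27 (SE 0.058, limma adjusted p = 8.16e-05). Col19a1 ran from 5.00 to 16.1 CPM (median 10.1) and from 2.58 to 13.9 (median 8.65), a change of -0.34 (SE 0.079, limma adjusted p = 0.000361). Col23a1 ran from 1.06 to 8.85 CPM (median 2.51) and from 0.293 to 5.34 (median 1.68), a change of -0.43 (SE 0.087, limma adjusted p = 3.64e-05). The ranges overlapped over most of their length for each gene.

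Of 9 fibrillar members tested 6 were lower. Col3a1 ran from 3.08 to 20.1 CPM (median 5.65) in numeric and from 1.77 to 16.8 (median 4.71) in E21 libraries, a log2 change of -0.29 (SE 0.091, limma adjusted p = 0.007). Col5a1 changed by -0.30 (SE 0.0661, limma adjusted p = 0.000196), from medians of 2.73 to 2.28 CPM. Col5a2 changed by -0.18 (SE 0.0486, limma adjusted p = 0.00149) and Col5a3 by -0.15 (SE 0.0533, limma adjusted p = 0.0184). Col11a1 changed by -0.25 (SE 0.094, limma adjusted p = 0.028) and Col11a2 by -0.18 (SE 0.0629, limma adjusted p = 0.0198). With log2 total count as a covariate 2 of the 9 were lower. The collagen I chains did not pass, with Col1a1 at -0.13 (SE 0.099, limma adjusted p = 0.318) and Col1a2 at -0.24 (SE 0.11, limma adjusted p = 0.0867), and Col27a1 was at -0.02.

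Of 5 basement membrane members 4 were lower by small amounts, against 25.8% of all genes. With either other scaling 2 of the 5 were, and with log2 total count as a covariate 0 were by limma, with 1 at an unadjusted p under 0.05. Col4a1 ran from 24.6 to 48 CPM (median 31.9) in numeric and from 14.4 to 57.4 (median 30.2) in E21 libraries, a log2 change of -0.13 (SE 0.042, limma adjusted p = 0.0109). Col4a5 changed by -0.17 (SE 0.0451, limma adjusted p = 0.00189), Col4a6 by -0.12 (SE 0.0473, limma adjusted p = 0.0405) and Col4a3 by -0.11 (SE 0.0461, limma adjusted p = 0.0441), while Col4a2 was at -0.11 (SE 0.0495, limma adjusted p = 0.0587). All 3 type VI chains tested were lower, with Col6a1 at -0.21, Col6a2 at -0.21 and Col6a3 at -0.18. With log2 total count as a covariate 1 of the 3 was lower, Col6a2, and with the cortical score 2 were. The other members that passed without a covariate were Col12a1 (-0.30), Col8a2 (-0.24), Col18a1 (-0.23), Col9a2 (-0.23), Col16a1 (-0.19), Col7a1 (-0.19), Col14a1 (-0.14) and Col20a1 (-0.12). Col8a1 (-0.11), Col17a1 (-0.05), Col15a1 (-0.02) and Col9a3 (-0.01) did not.

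**Figure D5:**
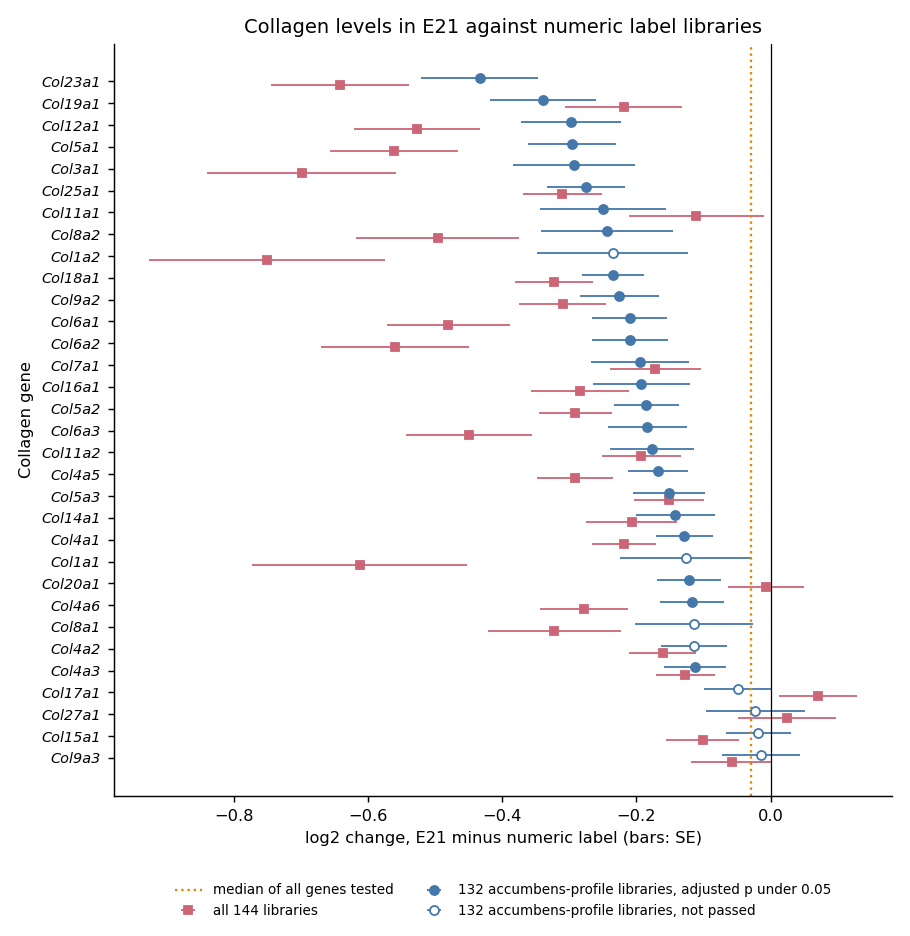
log2 change, E21 minus numeric label, for 32 collagens with SE bars, over 56 numeric and 76 E21 accumbens-profile libraries (circles, filled where the limma adjusted p is under 0.05) and over all libraries of both labels (squares). All circles are negative, and collagens I, III and VI lie further left when libraries of other profiles are included.

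When the libraries of other profiles, nearly all of the numeric label, were put back, 28 of 34 members were lower (30.3% of genes). Col1a1 then changed by -0.61 (SE 0.16, limma adjusted p = 0.000972), Col1a2 by -0.75 and Col3a1 by -0.70, against -0.13, -0.24 and -0.29 without those libraries. Library depth differed too, with totals of 28.0 M (SD 8.56, n = 67) for the numeric and 22.3 M (SD 4.92, n = 77) for the E21 label. With log2 total count as a covariate 9 members were lower (15.0% of genes), and all 32 were negative. Called in each of the 8 settings run were Col5a1, Col5a2, Col6a2, Col9a2, Col18a1, Col19a1, Col23a1 and Col25a1. The share of all genes called in each of the 8 was not counted, so this list has no background to be read against.

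Markers moved with the label as well. Of 8 cortical glutamatergic markers 7 were lower in the E21 libraries, and their sum had medians of 360 and 149 CPM. Of 10 medium spiny neuron markers 8 were higher (summed medians 8017 and 8864 CPM), and of 6 GABA interneuron markers 3 were lower. Of 10 meningeal markers 3 were lower, near the 25.8% of all genes (summed medians 47 and 41.1 CPM), of 8 mural markers 4 (102 and 88.6 CPM) and of 8 endothelial markers 0 (283 and 283 CPM). Of the endothelial markers 2 had an unadjusted p under 0.05, and 1 was higher after scaling by median of ratios and 2 after quantile normalization. With the cortical score as a covariate 21 members were lower (30.6% of genes), and Col3a1 was at -0.17 (SE 0.094, limma adjusted p = 0.135). The part of cell composition in the label difference was not tested beyond this.

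Among the partner genes, 11 of 13 basement membrane partners were lower in E21 libraries, among them Lama2 (-0.27), Nid1 (-0.21), Lama4 (-0.21) and Lama1 (-0.22), which encode laminin chains and a nidogen, and 9 and 7 were lower with the other scalings and 4 with log2 total count as a covariate. The other lists are to be read against the 25.8% of all genes that were lower and the 11.8% that were higher. Of 17 folding and modification genes 4 were lower, a share near that background, including Colgalt2 (-0.21), Mia3 (-0.16) and Colgalt1 (-0.09), and 1 higher, the lysyl hydroxylase Plod3 (0.11). Scaling by median of ratios gave 4 lower and 4 higher, and quantile normalization 4 and 3. Of 10 processing and crosslinking genes 3 were lower, including Adamts2 (-0.48) and Tll1 (-0.30), and 2 higher, the lysyl oxidase relatives Loxl3 (0.17) and Loxl1 (0.15). Of 7 turnover genes 2 were lower, the collagen uptake receptor Mrc2 (-0.15) and the metalloproteinase inhibitor Timp3 (-0.09), and neither passed with the other scalings. Of 7 receptors 4 were lower, including Ddr2 (-0.39), Lair1 (-0.21) and Itga11 (-0.20), and 1 higher, Adgrg1 (0.09). With log2 total count as a covariate 1 receptor was lower.

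The corrected E21 libraries were compared with the E21 libraries. All 12 had numbered placeholder names of one series before the correction, so that series and the corrected label cannot be told apart, and the comparison shares its E21 libraries with the one above. Of 31 members tested, 5 were higher and 0 lower by limma (6.17% and 1.91% of 15305 genes). Col23a1 ran from 1.19 to 7.01 CPM (median 3.80) in the corrected and from 0.293 to 5.34 (median 1.68) in the E21 libraries, a log2 change of 0.79 (SE 0.16, limma adjusted p = 0.00047). Col19a1 ran from 9.01 to 16.1 CPM (median 11.0) against 2.58 to 13.9 (median 8.65), a change of 0.53 (SE 0.15, limma adjusted p = 0.0156).

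The other members that passed were Col5a1 (0.39), Col6a1 (0.30) and Col18a1 (0.27), while Col25a1 was at 0.33 (SE 0.11, limma adjusted p = 0.0554) and none of 5 basement membrane members passed. Of 8 cortical markers 6 were higher, and their sum had medians of 637 and 149 CPM. Of 10 medium spiny neuron markers 5 were lower and of 6 GABA interneuron markers 2 were higher. None of 10 meningeal, 8 mural and 8 endothelial markers passed. With the cortical score as a covariate 0 members passed by limma, where only 11 of 15305 genes were higher and 1 lower. There 14 members had an unadjusted p under 0.05, against 11 without the covariate. The median change of the members was 0.22 with it and 0.18 without it. Col23a1 was at 0.47 with the covariate (SE 0.14, limma adjusted p = 0.0687). Col5a1, Col19a1 and Col23a1 passed in the 7 settings other than the cortical one, and with all E21 libraries these 3 did (4.19% of genes). The share of all genes that passed in each of the 7 was not counted. After scaling by median of ratios all genes split into 698 higher and 547 lower, against 945 and 292.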

How the data were processed

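Deposited values were log2 of an expected count plus 1 per gene, a unit taken from the values because the header states none. Quantification used kallisto 0.48, per the submitters' processing notes. Annotation, build and strand were not given in the sources used here. Reads of overlapping or antisense genes could therefore not be told apart. All 38278 symbols found in RefSeq for GRCr8 had positions equal to a gene end there, and coordinates are from that table. Values were turned back to counts, scaled to CPM and, for tests, log2 transformed with a pseudocount of 1 after removing genes whose mean was under 1 CPM. Profiles were set by Drd1 or Th of at least 100 CPM and described without a test. Labels were compared in limma 3.58.1 (R 4.3.3; moderated, intensity trend, 2-sided, Benjamini-Hochberg over all genes), with code tested on simulated counts. Other tools were pandas 2.3.3, scipy 1.17.1, numpy 2.4.6 and matplotlib 3.10.9 under Python 3.11.15. Libraries correlated at up to 0.994 and were all kept apart.

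Members, classes, marker and pathway lists were chosen with earlier results of these data known. The rule for named genes took the fibrillar, basement membrane and neuron-associated members that passed the filter, others that passed a test or were apart in range, up to 4 genes per pathway list with the smallest p, and the 5 genes nearest Col1a1, Col4a1 and Col25a1. By profile these members have ranges or medians. By label, members of other classes that passed have the log2 change alone. Pathway genes given by profile were picked after their values were seen. Alternatives were other scalings and pseudocounts, no filter, covariates and all libraries.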

Additional observations from a re-analysis of the deposited data

How the results depend on the processing

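Depth limits low members, since 1 CPM is 14.6 to 61.2 expected counts, and labels give no batch, so batches behind the label formats were not tested. No paired analysis was possible because replicate numbers are names that pair no libraries. For E21 against numeric labels, the genes called higher went from 1809 to 2850 with median-of-ratios scaling, 3090 with quantile normalization and 783 with log2 total count as a covariate. That covariate took the genes called lower from 3949 to 2303 and the collagens called lower from 24 to 9, and the cause was not tested. For corrected E21 against E21 labels, the collagens called higher went from 5 to 3 with all libraries, with either scaling and with log2 total count, and to 0 with the cortical score, where the genes called higher went from 945 to 11. The genes called lower went from 292 to 133 with all libraries, 547 with median-of-ratios scaling, 608 with quantile normalization and 1 with the cortical score. Without E21 library 70, an alternative added after seeing the data, the members apart in range between profiles went from 1 to 2. Among correlations, r of Col4a1 with Col25a1 turned from 0.25 to -0.37 and that of Col25a1 with log2 total count from 0.27 to -0.17 within the numeric label. That of Col19a1 with the medium spiny neuron score turned from -0.25 to 0.22 over all libraries. With a pseudocount of 0.1 the member counts were 24 and 5, as in the reported fits.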

Other observations

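A set of 6 further pairs were computed over the 147 accumbens-profile libraries after their values were seen, with permutation p-values adjusted together with the 30 of the report, and each has an adjusted p of 1.636e-05 for r. Col9a3, a chain of the cartilage-type collagen IX, had r = 0.79 and rho = 0.78 with the oligodendrocyte score (0.76 without the 2 farthest libraries, 0.79 in numeric and 0.80 in E21 libraries). Col11a2 and Col16a1 had r = 0.82 and rho = 0.77 (0.81, 0.82 and 0.80 in those subsets). Col8a2 had r = 0.77 and rho = 0.59 with the meningeal score (0.75, 0.87 and 0.68), and Col6a1 r = 0.50 and rho = 0.45 (0.44, 0.57 and 0.46). Col23a1 had r = 0.68 and rho = 0.69 with the cortical score (0.67, 0.76 and 0.50). Col25a1 had r = -0.67 and rho = -0.61 with the microglial score (-0.66, -0.60 and -0.73). These pairs were picked for their size, so they are descriptions.

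In E21 library 24, Col1a1 was at 22.8 CPM while the other collagen I chain, Col1a2, was at 7.98 CPM. In the other 8 accumbens-profile libraries with over 20 CPM of Col1a1, Col1a2 lay between 18.6 and 44.0 CPM. Between the label formats, Col4a1 with Col25a1 had r of -0.37 in numeric and 0.33 in E21 libraries, and the difference itself was not tested. The 2 libraries with an AA1 label had 48.7 and 49.4 CPM of Col25a1 and the 1 library corrected to another format had 37.9, where the 12 corrected E21 libraries ran from 63.2 to 81.1.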
